A study of Homo sapiens with 4 samples.

Results

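The H3K27me3 peaks on the arms of human chromosome 3 were compared between HaCaT cells treated with AKBA and HaCaT cells given DMSO. All chromosome 3 peaks of both deposited peak lists were taken, in coordinates of the human genome build hg19. A peak that ended before 90.5 Mb was placed on the short arm, and a peak that started after 93.5 Mb on the long arm. The arms held 926 of the 22045 peaks of both lists, and 0 peaks lay between the limits. The AKBA list held 133 short-arm and 420 long-arm peaks, together 553 of its 13155 peaks. The DMSO list held 107 short-arm and 266 long-arm peaks, together 373 of its 8890 peaks. HaCaT cells are immortalised human keratinocytes, the cells that form the epidermis. Cells were kept for 12 hours with AKBA or with DMSO in the medium, and chromatin was precipitated with the same Millipore antibody in both conditions. AKBA is the usual short form for an acetylated keto-boswellic acid from frankincense resin, a reading that the labels do not spell out, and DMSO is a common solvent. No dose is stated in the sources used here. Of 4 samples, 2 were H3K27me3 libraries, 1 per condition, and the input DNA of each condition has no values used here. There were no replicates, so no difference between the conditions has a test. Peak lists carry no read numbers, and the depth of both libraries is unknown. The 95% intervals below cover counting error only and treat peaks as independent, although neighbouring peaks share a library and often a domain.

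H3K27me3 is the trimethyl mark that Polycomb repressive complex 2 places on lysine 27 of histone H3. It covers the CpG-rich starts of many silenced developmental genes, and it can spread over neighbouring sequence to form broad domains. HaCaT has been described as having lost material of the chromosome 3 short arm, which would leave fewer copies of that arm than of the long arm. Copy number was not measured in these files, and its part in every difference between the arms below was not tested.

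The promoters of a pair of genes named at high-scoring AKBA peaks are shown as examples of CG-rich gene starts. Going by general knowledge of hg19 rather than the files, the second highest-scoring short-arm AKBA peak, chr3:53528028-53530366, lies at CACNA1D, which encodes the pore subunit of a voltage-gated calcium channel. Likewise the highest-scoring long-arm AKBA peak, chr3:138663679-138666639, lies at FOXL2, a forkhead transcription factor of ovary and eyelid development. Both were chosen after the values were seen. Their RefSeq promoters in assembly GRCh38.p14 run from 250 bases before the gene start to 50 bases after it, each written 5′ to 3′ on the gene's own strand, plus for CACNA1D and minus for FOXL2. Capitals mark every CG dinucleotide.
CACNA1D: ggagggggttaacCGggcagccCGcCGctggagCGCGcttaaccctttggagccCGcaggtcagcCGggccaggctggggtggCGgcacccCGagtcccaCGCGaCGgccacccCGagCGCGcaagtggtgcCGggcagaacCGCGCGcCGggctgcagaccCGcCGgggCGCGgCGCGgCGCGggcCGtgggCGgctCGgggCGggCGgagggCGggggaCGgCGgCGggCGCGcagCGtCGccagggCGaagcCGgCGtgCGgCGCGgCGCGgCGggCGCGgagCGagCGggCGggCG
FOXL2: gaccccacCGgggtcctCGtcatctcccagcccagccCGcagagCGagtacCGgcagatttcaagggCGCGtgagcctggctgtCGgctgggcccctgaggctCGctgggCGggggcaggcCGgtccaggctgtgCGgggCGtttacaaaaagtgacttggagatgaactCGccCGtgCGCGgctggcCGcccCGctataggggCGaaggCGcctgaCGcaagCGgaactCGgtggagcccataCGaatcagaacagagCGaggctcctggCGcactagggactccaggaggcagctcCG
The CACNA1D promoter held 56 CG dinucleotides at 83.0% G and C, and 0.276% of all 35116 RefSeq promoters held as many. The FOXL2 promoter held 28 at 68.0% G and C, a number that 26.2% of all promoters reached. The other 10 matched promoters of genes near named regions held between 2 CG, at PTH1R, and 46 CG, at MYRIP, and SHOX2 held 6. The median was 12 over the 2153 promoters of chromosome 3 and 14 over all promoters. CG reads the same on both strands, and the count describes the sequence and not the mark. Because the builds differ, the promoters were not placed within the peaks.

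The first question was how densely each arm was marked. The short arm was sparse in both lists. It held 1.52 AKBA peaks and 1.22 DMSO peaks per Mb over the 87.6 Mb between its outermost peaks. The long arm held 4.04 AKBA peaks and 2.56 DMSO peaks per Mb over 103.9 Mb. The density of the short arm was thus 0.376 times that of the long arm in the AKBA list (95% interval 0.307 to 0.458) and 0.477 times in the DMSO list (0.378 to 0.599). In marked sequence, the short arm held 1.46 kb in the AKBA list and 0.795 kb in the DMSO list per Mb. The long arm held 4.35 kb in the AKBA list and 2.32 kb in the DMSO list per Mb.

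**Figure D1:**
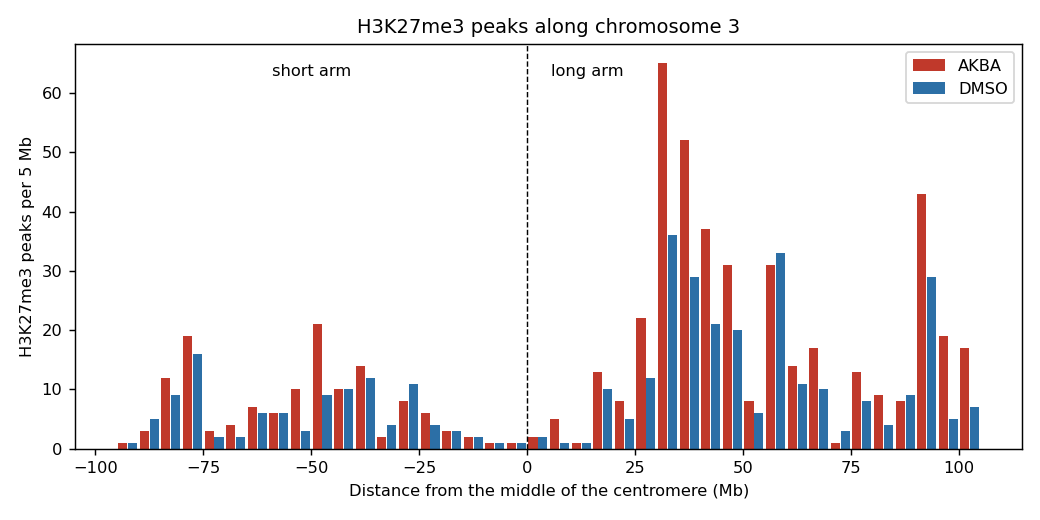
Numbers of AKBA peaks (red) and DMSO peaks (blue) per 5 Mb against the distance from the middle of the centromere in Mb, short arm on the left of the dashed line and long arm on the right. Most of the short arm is low, with its fullest 10 Mb between 10 and 20 Mb, and the tallest bars stand on the part of the long arm between 120 and 130 Mb, which holds 114 AKBA peaks and 67 DMSO peaks.

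Marked regions were spread unevenly along both arms, as the plot of peaks along the chromosome shows. In bins of 10 Mb, the fullest part of the short arm lay between 10 and 20 Mb, with 34 AKBA peaks and 26 DMSO peaks. Its emptiest part lay between 80 and 90 Mb beside the centromere, with 2 AKBA peaks and 2 DMSO peaks. On the long arm the bin between 120 and 130 Mb was the fullest, followed in the AKBA list by 130 to 140 Mb with 66 AKBA peaks and 43 DMSO peaks. Another cluster lay between 180 and 190 Mb, with 63 AKBA peaks and 40 DMSO peaks. The emptiest long-arm bin, 90 to 100 Mb, again adjoined the centromere and held 5 AKBA peaks and 3 DMSO peaks. Part of that bin is the zone from 90.5 to 93.5 Mb between the limits, which belongs to neither arm and held 0 peaks. Its start before 90.5 Mb falls to the short arm. Low density was therefore not limited to 1 stretch of the short arm. Against the median bin of the other chromosomes, which held 31 AKBA peaks and 22 DMSO peaks, 8 of 9 short-arm bins were lower in the AKBA list and 7 of 9 in the DMSO list. The short-arm bin from 10 to 20 Mb was above those medians in both lists. Of the 11 long-arm bins, 6 were lower in each list, among them the bin from 90 to 100 Mb that lies only partly on the arm. With the bin from 120 to 130 Mb taken out of the long arm, an alternative chosen after the data were seen, the AKBA density ratio of short to long arm was 0.466.

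Few peaks lay near the centromere. Within 5 Mb of the centromeric limits, the short arm had 1 AKBA peak and 1 DMSO peak, and the long arm had 4 AKBA peaks and 3 DMSO peaks. The last short-arm peak was shared by the lists, at chr3:87841927-87842653 in AKBA and chr3:87841946-87842373 in DMSO. The first long-arm peaks were not: the AKBA list began at chr3:96135406-96135697 and the DMSO list at chr3:93965300-93965930. Between the arms, 6.12 Mb held no peak of either list (chr3:87842654-93965299). That stretch takes in the whole zone from 90.5 to 93.5 Mb between the limits. Peak lists do not show whether reads could be placed there, so its length is no measure of the mark. Within the short arm the longest peak-free stretch was 5.19 Mb (chr3:79816324-85008902), and within the long arm it was 4.47 Mb (chr3:102338748-106811661). Within 5 Mb of the outermost peak at the tip, the short arm had 3 AKBA peaks and 4 DMSO peaks, and the long arm had 17 AKBA peaks and 9 DMSO peaks. The first short-arm peak was shared, at chr3:238811-239738 in AKBA and chr3:238481-239733 in DMSO. The last long-arm peaks, chr3:197861707-197862418 in AKBA and chr3:197895723-197895989 in DMSO, did not overlap.

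Typical peak width hardly separated the arms. The median short-arm peak measured 744 bp with AKBA (95% interval 649 to 898) and 522 bp with DMSO (431 to 609). The median long-arm peak measured 722 bp with AKBA (653 to 776) and 564.5 bp with DMSO (495 to 667). The ratio of short-arm to long-arm median was 1.03 in the AKBA list (0.883 to 1.28) and 0.925 in the DMSO list (0.717 to 1.13), and both intervals include equality. Among DMSO peaks with a score of at least 3 that ratio was 0.475 (0.261 to 0.704). On each arm the AKBA median was above the DMSO median, 1.43 times on the short arm (1.16 to 1.86) and 1.28 times on the long arm (1.05 to 1.49). The narrowest peak of the whole list also differed, 214 bp in AKBA and 160 bp in DMSO. As multiples of that width the short-arm medians were 3.48 in AKBA and 3.26 in DMSO. The long-arm multiples were 3.37 in AKBA and 3.53 in DMSO, so AKBA was not above DMSO there.

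Peaks of at least 2 kb were scarcer on the short arm in the DMSO list. At least 2 kb was reached by 12 short-arm AKBA peaks, or 9.02%, and by 3 short-arm DMSO peaks, or 2.80%. Over the whole lists these shares were 14% for AKBA and 9.43% for DMSO. Of the long-arm peaks, 53 in AKBA, or 12.6%, and 36 in DMSO, or 13.5%, were that wide. The short-arm minus long-arm difference was -3.60 percentage points in the AKBA list (95% interval -9.16 to 3.31) and -10.7 points in the DMSO list (-15.9 to -4.27). The DMSO interval leaves out 0 and the AKBA interval does not. Among peaks of at least 1 kb the DMSO difference was -38.7 points and the AKBA difference -13.2 points. At least 5 kb was reached by 7 AKBA peaks and 2 DMSO peaks of the long arm, and by 1.84% of AKBA peaks and 0.787% of DMSO peaks over all chromosomes. On the short arm 0 of 133 AKBA peaks were that wide, which allows a share of up to 2.26%, and 0 of 107 DMSO peaks, which allows up to 2.80%. These limits are approximate, 3 divided by the number of peaks. Both limits lie above the shares over all chromosomes, so at these numbers the zeros do not set the short arm apart. The widest short-arm peak measured 3330 bp in AKBA and 2788 bp in DMSO, and the widest long-arm peak 11793 bp in AKBA and 5692 bp in DMSO.

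**Figure D2:**
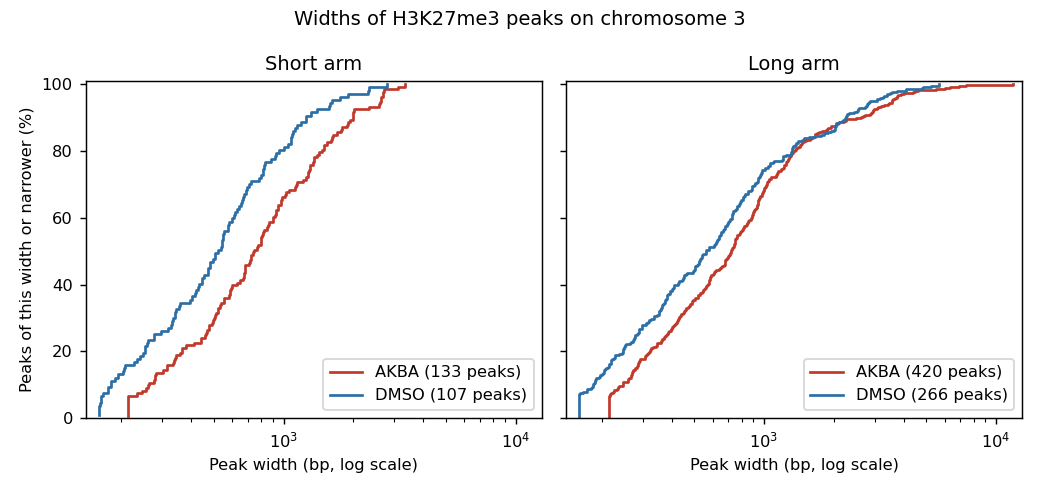
Cumulative share of peaks (%) against peak width in bp on a log axis, for the short arm on the left and the long arm on the right, with the AKBA list in red and the DMSO list in blue. On the short arm the AKBA line lies right of the DMSO line over nearly all widths, with medians of 744 bp in AKBA and 522 bp in DMSO, and on the long arm the lines meet among the wide peaks.

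The score that the authors gave each peak has no stated scale. It was used to rank peaks within a list and, as a minimum of 3 in both lists, to filter them. That filter assumes a common scale. The top 10% of AKBA scores and the top 10% of DMSO scores held 6 short-arm AKBA peaks (4.51%) and 6 short-arm DMSO peaks (5.61%). They also held 57 long-arm AKBA peaks (13.6%) and 30 long-arm DMSO peaks (11.3%). The short-arm minus long-arm difference was -9.06 points in the AKBA list (95% interval -13.7 to -3.12) and -5.67 points in the DMSO list (-11.3 to 1.47). Top-ranked AKBA peaks were thus scarcer on the short arm beyond counting error, and for DMSO the interval includes 0. Among peaks of at least 1 kb the difference was -22.0 points in the AKBA list (-33.4 to -6.80) and -26.5 points in the DMSO list (-38.6 to -7.53), and both intervals leave out 0.

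The highest-scoring short-arm peaks, 6 in each list, differed in width between the lists. The 6 in the AKBA list were 854 to 3330 bp wide with a median of 1494.5 bp. The 6 in the DMSO list were 161 to 343 bp wide with a median of 254.5 bp, all under 400 bp. Long-arm top-scoring AKBA peaks had a median of 2494 bp and the top-scoring DMSO peaks 1425 bp, and 5 of those 30 DMSO peaks were under 400 bp. On the other chromosomes 229 of 853 top-scoring DMSO peaks and 183 of 1253 top-scoring AKBA peaks were under 400 bp. Across all short-arm peaks, the Spearman correlation of width with score was 0.422 over 133 AKBA peaks and -0.134 over 107 DMSO peaks. For the long arm it was 0.334 over 420 AKBA peaks and 0.377 over 266 DMSO peaks, and for the other chromosomes 0.293 in AKBA and 0.233 in DMSO. These are descriptions, since width and score come from the same library and the same calling.

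The next question was how far the lists marked the same places. Peaks that overlapped the other list by 1 bp or more are called shared. Sharing was higher on the short arm in the AKBA list. There, 61 of 133 short-arm AKBA peaks were shared, or 45.9% (95% interval 37.2 to 54.7), and 65 of 107 short-arm DMSO peaks, or 60.7% (50.8 to 70.0). Over all chromosomes 32.2% of AKBA peaks and 54.5% of DMSO peaks were shared. The long arm had 125 of 420 AKBA peaks shared, or 29.8% (25.4 to 34.4), and 142 of 266 DMSO peaks, or 53.4% (47.2 to 59.5). The short-arm minus long-arm difference was 16.1 points in the AKBA list (6.28 to 26.0) and 7.36 points in the DMSO list (-4.28 to 18.5).

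The AKBA difference depended on the definition, and it fell below 0 under 3 stricter ones. When each peak of an overlapping pair had to cover 50% of the other, 14.3% of short-arm and 14.8% of long-arm AKBA peaks were shared, a difference of -0.476 points. When peaks under a score of 3 were removed from both lists the difference was -9.60 points, and when peaks under 1 kb were removed from both it was -7.30 points. The intervals of all 3 values include 0. The DMSO difference also fell below 0, to -5.55 points with 50% overlap, -23.9 points at a score of at least 3 (-40.9 to -6.26) and -10.6 points at 1 kb or more. Counted in bases, the lists shared 36.1 kb of the short arm, which was 28.3% of its AKBA sequence and 51.9% of its DMSO sequence. They shared 160.1 kb of the long arm, which was 35.4% of its AKBA sequence and 66.4% of its DMSO sequence. In bases the short arm thus had the lower shared part in both lists.

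**Figure D3:**
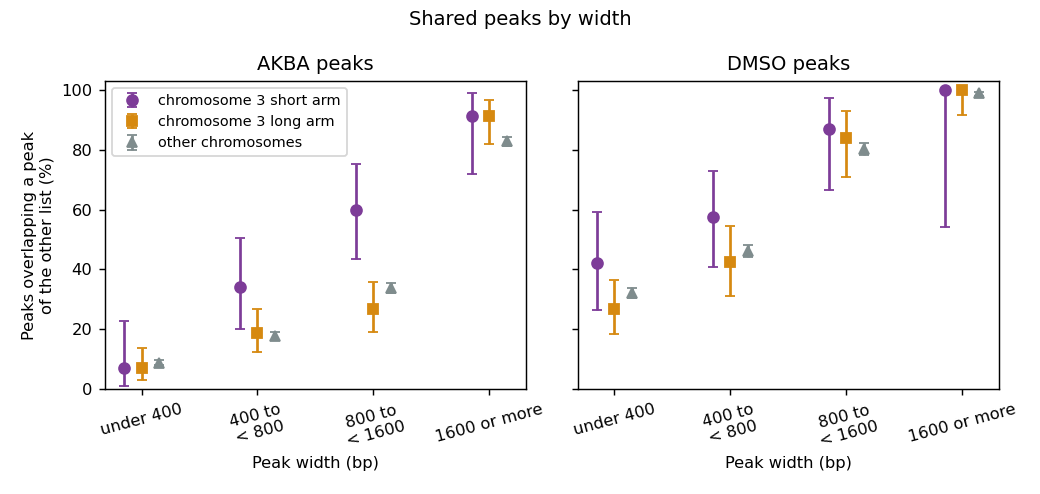
Share of peaks (%) shared with the other list, by peak width class, for the AKBA list on the left and the DMSO list on the right, with short arm, long arm and other chromosomes side by side. Error bars are exact 95% Clopper-Pearson intervals of counting error. In AKBA peaks of 800 to under 1600 bp the short arm stands at 60.0% and the long arm at 26.7%, and at 1600 bp or more both stand at 91.3%.

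Split by width, the AKBA difference sat in the middle classes, as the plot of shared peaks by width shows. Under 400 bp, 6.90% of short-arm and 7.14% of long-arm AKBA peaks were shared. Between 400 and 800 bp the shares were 34.1% on the short arm and 18.7% on the long arm, and their intervals overlap. Between 800 and 1600 bp they were 60.0% on the short arm (95% interval 43.3 to 75.1) and 26.7% on the long arm (18.9 to 35.7), and these intervals do not overlap. On the other chromosomes the AKBA shares were 8.77% under 400 bp, 17.6% between 400 and 800 bp and 33.8% between 800 and 1600 bp. The long-arm interval of the last class includes that 33.8% and the short-arm interval lies above it. Weighted to a common mix of widths, the AKBA shares were 44.0% on the short arm and 30.1% on the long arm, and the DMSO shares were 63.0% on the short arm and 52.1% on the long arm. By score, with overlap counted against the whole other list, the arms were ordered alike in the AKBA classes but not in the DMSO classes. Of AKBA peaks scoring under 3, 24.3% were shared on the short arm and 9.55% on the long arm, and of AKBA peaks scoring at least 3, 72.9% on the short arm and 52.0% on the long arm. Of DMSO peaks scoring under 3, 54.0% were shared on the short arm and 27.9% on the long arm. Of DMSO peaks scoring at least 3, 70.5% were shared on the short arm and 80.0% on the long arm. On the other chromosomes 13.7% of AKBA peaks scoring under 3 and 50.6% of those scoring at least 3 were shared. For DMSO peaks there the shares were 39.1% under 3 and 69.3% at 3 or more, the latter near the short arm's. The short-arm DMSO peaks scoring at least 3 had a median width of 438.5 bp, and those of the long arm 923 bp. With both lists cut at a score of 3, the setting of the differences given earlier, 33.9% of short-arm and 43.5% of long-arm AKBA peaks were shared. In that setting 50% of short-arm and 73.8% of long-arm DMSO peaks were shared.

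Most peaks without an overlap lay more than 5 kb from the other list. Within 5 kb of one lay 24 of 72 unshared short-arm AKBA peaks (33.3%) and 17 of 42 unshared short-arm DMSO peaks (40.5%), where the shares over all chromosomes were 27.3% for AKBA and 43.8% for DMSO. The same held for 59 of 295 unshared long-arm AKBA peaks (20.0%) and 37 of 124 unshared long-arm DMSO peaks (29.8%). The median distance to the other list was 38.2 kb for AKBA and 20.9 kb for DMSO on the short arm, and 32.4 kb for AKBA and 17.6 kb for DMSO on the long arm. Unshared peaks were narrower than shared ones on both arms, which the 1 bp rule favours, since a wider peak has more room to overlap. Short-arm medians were 516 bp in AKBA and 377 bp in DMSO for unshared peaks, and 1293 bp in AKBA and 640 bp in DMSO for shared peaks. Long-arm medians were 556 bp in AKBA and 363 bp in DMSO for unshared peaks, and 1602 bp in AKBA and 938 bp in DMSO for shared peaks.

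The last question was whether the AKBA list exceeded the DMSO list by the same factor on both arms. The AKBA over DMSO ratio of peak numbers was 1.24 on the short arm (95% interval 0.956 to 1.62) and 1.58 on the long arm (1.35 to 1.85). The long-arm interval leaves out 1 and the short-arm interval includes it. The short-arm ratio divided by the long-arm ratio was 0.787, with an interval of 0.579 to 1.07 that includes 1, so the arms were not told apart by this measure at this number of peaks. In marked sequence the ratios lay close together. The short arm held 127.8 kb in AKBA and 69.7 kb in DMSO, a ratio of 1.83, and the long arm held 451.8 kb in AKBA and 241.0 kb in DMSO, a ratio of 1.87. Their quotient, short arm over long arm, was 0.978 over all peaks and 1.40 among peaks with a score of at least 3. When the 8890 highest-scoring peaks of each list were used, the ratio of peak numbers was 0.804 on the short arm and 1.02 on the long arm. The DMSO list holds 8890 peaks in all, so only the AKBA list was cut. That setting fixes the ratio over all chromosomes at 1, and the values carry no measure of the AKBA excess.

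Short-arm peaks were also wider in AKBA where the lists met. Of the 57 short-arm pairs in which 1 AKBA peak overlapped 1 DMSO peak and no other, the AKBA peak was wider in 45, or 78.9% (95% interval 66.1 to 88.6), an interval that includes the 73.1% over all chromosomes. The median AKBA over DMSO width ratio of these pairs was 1.70 (95% interval 1.43 to 2.28), with median widths of 1290 bp in AKBA and 669 bp in DMSO. On the other chromosomes the median ratio was 1.42, just below that interval's lower bound. The long arm had a wider AKBA peak in 63 of 94 pairs, or 67.0%, with a median ratio of 1.28 (1.11 to 1.45) and median widths of 1321.5 bp in AKBA and 938 bp in DMSO. Among peaks of at least 1 kb the ratio of numbers was 2.14 on the short arm and 1.96 on the long arm. The narrowest peak measured 214 bp for AKBA and 160 bp for DMSO, and the closest neighbouring peaks stood 857 bp apart for AKBA and 641 bp apart for DMSO. The part of these limits in the width ratios was not tested.

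The AKBA excess was spread along both arms. In windows of 1 Mb that held any peak, marked sequence was greater in AKBA in 48 of 60 short-arm windows, or 80.0%, and in 73 of 87 long-arm windows, or 83.9%, against 86.1% of windows over all chromosomes. The difference between the arms was -3.91 points (95% interval -18.1 to 9.28). By number of peaks, AKBA exceeded DMSO in 11 of 11 long-arm bins of 10 Mb, against 84.6% of bins over all chromosomes. On the short arm AKBA was ahead in 5 bins, DMSO in 3, and 1 bin was equal. The 3 short-arm bins with more DMSO peaks were 0 to 10 Mb with 4 AKBA peaks and 7 DMSO peaks, 50 to 60 Mb with 22 AKBA peaks and 23 DMSO peaks, and 60 to 70 Mb with 11 AKBA peaks and 14 DMSO peaks. In each of those bins the marked sequence was still greater in AKBA, for example 12.8 kb in AKBA and 6.70 kb in DMSO between 60 and 70 Mb.

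On the short arm the window with the greatest AKBA excess lay between 46 and 47 Mb, with 7.51 kb in AKBA and 2.17 kb in DMSO. The next lay between 53 and 54 Mb, with 8.19 kb in AKBA and 3.15 kb in DMSO. The greatest DMSO excess was small, with 0 kb in AKBA and 1.09 kb in DMSO between 56 and 57 Mb. That window held 1 DMSO peak, chr3:56501774-56502863, which was also the widest unshared DMSO peak of the arm. Between 35 and 36 Mb there were 0.589 kb in AKBA and 1.39 kb in DMSO. The AKBA excess between 46 and 47 Mb came to 5.34 kb over all peaks and 1.49 kb over peaks of at least 1 kb. Between 53 and 54 Mb it came to 5.05 kb over all peaks and 0.648 kb over peaks with a score of at least 3. On the long arm the greatest AKBA excess lay between 123 and 124 Mb, with 29.0 kb in AKBA and 11.0 kb in DMSO, and next between 147 and 148 Mb, with 41.4 kb in AKBA and 26.5 kb in DMSO. Their order depended on the peaks used: the AKBA excess was 18.0 kb between 123 and 124 Mb and 14.8 kb between 147 and 148 Mb over all peaks, but 7.44 kb between 123 and 124 Mb and 20.8 kb between 147 and 148 Mb with a score of at least 3. With equal numbers of peaks it was 5.71 kb between 123 and 124 Mb and 14.5 kb between 147 and 148 Mb, and with peaks of at least 1 kb it was 12.6 kb between 123 and 124 Mb and 20.7 kb between 147 and 148 Mb. The greatest DMSO excess lay between 181 and 182 Mb, with 3.46 kb in AKBA and 5.30 kb in DMSO, in the neighbourhood of SOX2, a pluripotency and stem-cell transcription factor. It was followed by 196 to 197 Mb, with 2.71 kb in AKBA and 3.76 kb in DMSO. Both of these long-arm DMSO excesses turned round under 1 alternative each.

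Gene names from here on rest on general knowledge of hg19, since the files name no genes. On the short arm the widest AKBA peak, chr3:3840720-3844049 with 3330 bp, lies at LRRN1, a leucine-rich repeat neuronal protein. A pair of DMSO peaks covered 8.89% of it. The second widest AKBA peak, chr3:46924126-46927243 with 3118 bp, lies at PTH1R, the parathyroid hormone receptor, and a DMSO peak of 1624 bp covered 45.7% of it. The third, chr3:16553957-16556675 with 2719 bp, was covered to 58.6%. The widest short-arm peaks of the AKBA list were thus all overlapped by narrower DMSO peaks, which a choice by AKBA width favours. The highest-scoring AKBA peak, chr3:43020486-43021339, overlapped a DMSO peak of 175 bp. The CACNA1D peak shown above, 2339 bp wide, was covered to 67.5% by a pair of DMSO peaks. The third highest-scoring, chr3:39850555-39852186, lies at MYRIP, a myosin and Rab-binding protein, and a DMSO peak of 1887 bp, wider than the AKBA peak, covered 90.0% of it. The widest AKBA peak with no DMSO overlap, chr3:11054592-11056584 with 1993 bp, was 17.5 kb from the nearest DMSO peak.

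Among short-arm DMSO peaks the widest was chr3:13323393-13326180 with 2788 bp, followed by chr3:11034790-11037122 with 2333 bp and chr3:50241479-50243782 with 2304 bp. AKBA peaks covered 45.4%, 26.7% and 86.6% of them in that order. The highest-scoring short-arm DMSO peak, chr3:62356908-62357071, was 164 bp wide and lay 0.055 kb from an AKBA peak. The second, chr3:72296219-72296478 with 260 bp, was 235 kb from any AKBA peak. The third, chr3:66550379-66550721 with 343 bp, lay wholly within an AKBA peak of 1128 bp. These 3 stand for the narrow form of all 6 top-scoring DMSO peaks of the arm.

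Domains were formed by joining peaks of either list across gaps of up to 5 kb. The short arm formed 137 domains, of which 67 held peaks of both lists, or 48.9% (95% interval 40.3 to 57.6), where the share over all chromosomes was 35.7%. Another 46 held AKBA peaks alone and 24 DMSO peaks alone. The long arm formed 413 domains, of which 122 held both, or 29.5% (25.2 to 34.2), with 209 of AKBA peaks alone and 82 of DMSO peaks alone. Among domains with both lists, AKBA covered more bases in 56 of 67 on the short arm (83.6%) and in 90 of 122 on the long arm (73.8%), and the intervals of both shares include the 78.4% over all chromosomes. At least 10 kb was reached by 0 of 137 short-arm domains and 9 of 413 long-arm domains, against 3.83% of domains over all chromosomes. The widest short-arm domain, chr3:27763254-27773034 with 9781 bp, lies at EOMES, a T-box transcription factor, and held 2.83 kb of AKBA peaks and 2.24 kb of DMSO peaks. The next, chr3:55515091-55524022 with 8932 bp, lies at WNT5A, a secreted Wnt ligand, and held 3.89 kb of AKBA peaks and 2.06 kb of DMSO peaks. The third, chr3:47614163-47621048 with 6886 bp, held 1.38 kb of AKBA peaks and 0.797 kb of DMSO peaks.

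The widest long-arm domain, chr3:147072306-147115989 with 43684 bp, lies over and beside ZIC4, which with its neighbour ZIC1 encodes zinc finger transcription factors of neural development, and held 28.2 kb of AKBA peaks in 8 pieces and 18.2 kb of DMSO peaks in 13 pieces. The adjoining domain, chr3:147122519-147142339 with 19821 bp, covers ZIC1 and held 12.9 kb of AKBA peaks and 8.29 kb of DMSO peaks. At FOXL2, chr3:138654786-138672021 with 17236 bp held 11.2 kb of AKBA peaks and 7.90 kb of DMSO peaks. At SHOX2, a homeobox gene of limb and heart development, chr3:157812098-157827025 with 14928 bp held 10.6 kb of AKBA peaks and 7.83 kb of DMSO peaks. All 9 long-arm domains of at least 10 kb held more AKBA than DMSO sequence. That count is a description only, since AKBA peaks helped make up the width that chose these domains. The number of peaks in them was lower in AKBA in 4, equal in 1 and higher in AKBA in 4. In 1 of the 9, chr3:127135952-127146745 with 10794 bp, there were 5.61 kb of AKBA peaks and 0 kb of DMSO peaks. That domain reached 10 kb through AKBA peaks alone. It holds the widest unshared AKBA peak of the arm, chr3:127138693-127142243 with 3551 bp, 60.0 kb from the nearest DMSO peak.

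The widest single peaks of the long arm lay in such domains. The widest AKBA peak, chr3:137479227-137491019, was 1 interval of 11793 bp where the DMSO list had the 2 widest DMSO peaks of the arm, chr3:137485194-137490885 with 5692 bp and chr3:137479207-137484469 with 5263 bp. Together these covered 92.7% of it, so the number of peaks was lower in AKBA at nearly equal marked sequence. The next widest AKBA peaks, chr3:147108543-147115989 with 7447 bp and chr3:147072306-147079228 with 6923 bp, belong to the ZIC4 domain, and DMSO peaks covered 27.7% and 63.5% of them. The third widest DMSO peak, chr3:157820520-157825366 with 4847 bp, belongs to the SHOX2 domain. The 3 highest-scoring AKBA peaks were the FOXL2 peak shown above, covered to 96.3% by DMSO, chr3:127633371-127634685, covered to 35.4%, and chr3:122638139-122641688, covered to 27.5%. The last overlapped the second highest-scoring DMSO peak, chr3:122640711-122642079. The highest-scoring DMSO peak was chr3:138153190-138155133, and the third, chr3:147140775-147141269, was 495 bp wide and lay within an AKBA peak of 6154 bp. The widest unshared DMSO peak, chr3:188857121-188858523 with 1403 bp, was 20.8 kb from an AKBA peak.

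The arms were last set beside the 22 other chromosomes with peaks. The short arm held 0.329 times their pooled AKBA density (95% interval 0.275 to 0.390) and 0.391 times their DMSO density (0.320 to 0.474). The long arm held 0.875 times their AKBA density (0.792 to 0.965) and 0.820 times their DMSO density (0.723 to 0.927). In both lists 20 of 22 chromosomes were denser than the short arm, and 4 and X were sparser. Chromosome 4 held 1.42 AKBA and 1.13 DMSO peaks per Mb, and X held 1.07 AKBA and 0.825 DMSO peaks per Mb. The share of AKBA peaks that were shared was 13.8 points higher on the short arm than on the other chromosomes (5.07 to 22.7), and 2.33 points lower on the long arm, with an interval of -6.74 to 2.37 that includes 0. For DMSO peaks the short-arm difference was 6.24 points (-3.72 to 15.6), an interval that includes 0. The AKBA excess over the other chromosomes also depended on the definition of sharing: with 50% reciprocal overlap the shares were 14.29% on the short arm and 14.02% on the other chromosomes. With scores of at least 3 in both lists they were 33.9% on the short arm and 37.3% on the other chromosomes, and in bases 28.3% on the short arm and 33.1% on the other chromosomes. Of domains joined across 5 kb, though, 48.9% held both lists on the short arm and 35.7% on the other chromosomes. In the AKBA list the sparse chromosomes 4 and X had shares near the short arm's, 45.2% on 4 and 49.4% on X. In the DMSO list theirs were 69.8% on 4 and 76.2% on X, above the short arm's 60.7%, which lay next to chromosome 17 at 60.0%. The AKBA over DMSO ratio of peak numbers on the short arm was below that of all 22 chromosomes, the lowest of which was 1.26 on chromosome 4. Divided by the ratio of all other chromosomes it was 0.840, with an interval of 0.645 to 1.10 that includes 1.

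**Figure D4:**
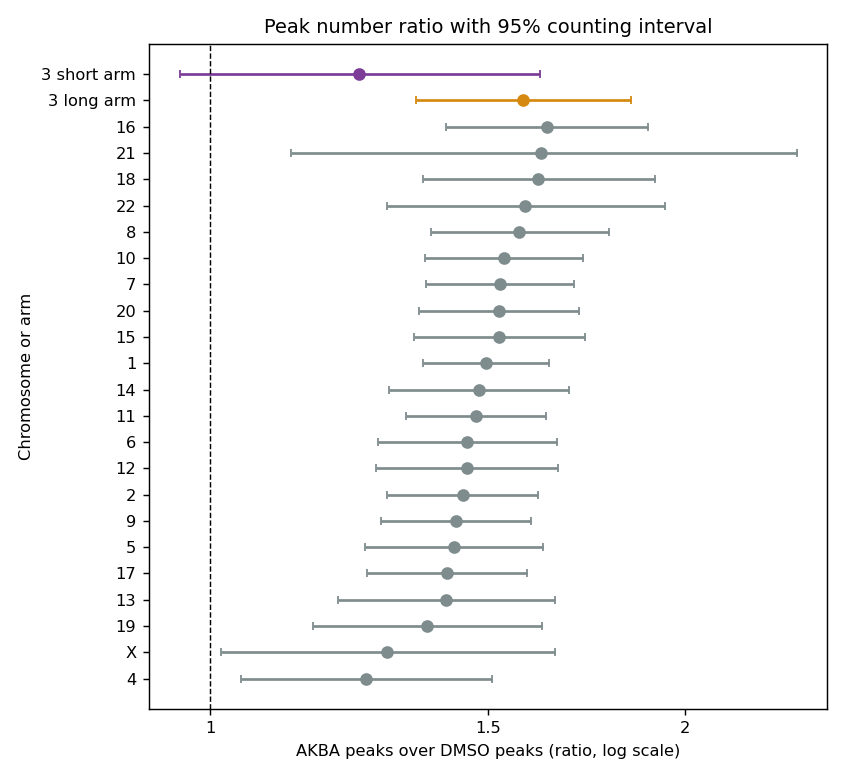
Ratio of the number of AKBA peaks to the number of DMSO peaks on a log axis, with 1 row for each arm of chromosome 3 and for each of the 22 other chromosomes, which run down the page from high to low ratio. Bars are 95% intervals of counting error and the dashed line marks equality. The short arm, at 1.24, is the leftmost point and has the interval that reaches past equality, and the long arm stands at 1.58.

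**Figure D5:**
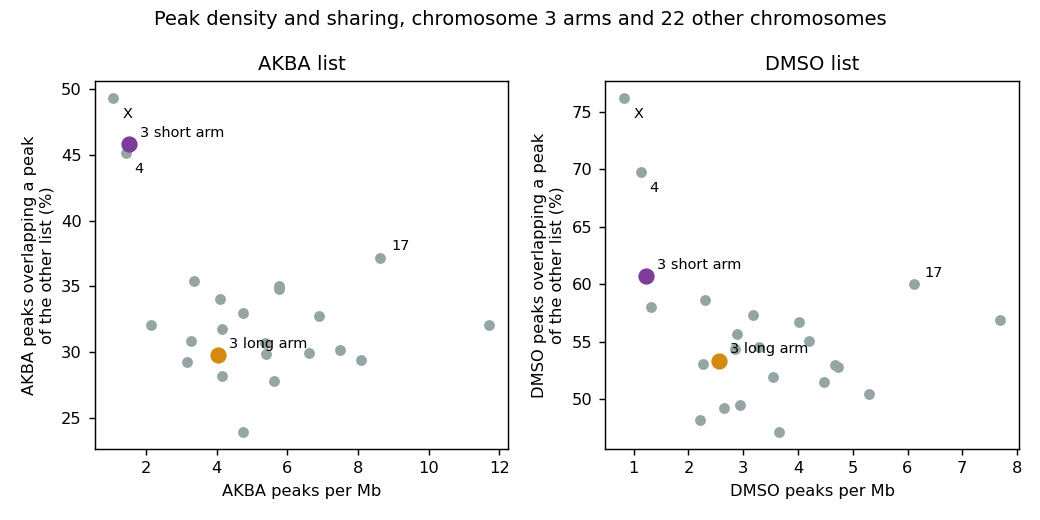
Share of peaks (%) shared with the other list against the number of peaks per Mb, AKBA list on the left and DMSO list on the right, with 1 point for each arm of chromosome 3 and for each of the 22 other chromosomes. In the AKBA list the short arm lies near chromosomes 4 and X in both measures. In the DMSO list it is as sparse, but its share of 60.7% is below the 69.8% of chromosome 4 and the 76.2% of X, and the long arm lies among the other chromosomes in both lists.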

How the data were processed

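H3K27me3 was measured by chromatin immunoprecipitation and sequencing in 4 samples, of which the 2 H3K27me3 libraries each have a peak list. The submitters' processing notes name hg19 as build and BWA, STAR and MACS2 as tools, without versions. What each tool did, how input DNA was used, the threshold and possible filters are not stated in the sources used here. The deposited lists give 1 score per peak, a score that the authors made on a scale that is not stated, so it ranked and filtered peaks within a list. A filter at a score of 3 in both lists assumes a common scale.

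The chromosome 3 peaks, the lists and the rules were chosen with earlier results of these data known. Peaks were counted, joined within 5 kb and summed in windows of 1 Mb with scipy 1.17.1, pandas 2.3.3 and numpy 2.4.6 under Python 3.11.15, and drawn with matplotlib 3.10.9. An overlap needed at least 1 bp. The overlap code was tested on simulated data and checked against bedtools 2.31.1. Each arm was measured between the outermost peaks of either list. Shares have exact 95% Clopper-Pearson intervals, ratios of numbers exact conditional binomial intervals and medians order-statistic intervals. The limit given for a count of 0 is instead 3 divided by the number of peaks, a 1-sided approximation. Differences of shares and ratios of medians combine the bounds. A ratio of ratios of peak numbers is the plain odds ratio of the counts, with a conditional odds-ratio interval. Ratios of covered bases have no interval. The regions named were, per arm and list, the 3 widest and 3 highest-scoring peaks, the outermost peaks and the widest unshared peak, and per arm the 3 widest domains and the windows with the greatest differences, with the 3 longest peak-free stretches. Other regions, among them the further domains of at least 10 kb, were chosen after their values were seen. The gene table at hand has the assembly GRCh38.p14, so peaks were assigned to no gene and no coordinate was converted. RefSeq promoters were matched by symbol, and 12 of 14 symbols matched. Without known depth there is no detection limit to give.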

Additional observations from a re-analysis of the deposited data

How the results depend on the processing

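The alternatives were a score of at least 3, peaks of at least 1 kb, equal numbers of top-scoring peaks, merging of nearby peaks, joining of close DMSO peaks, arms without 5 Mb at their ends, other definitions of overlap, window-based denominators and, chosen after the data were seen, leaving out narrowest-width peaks and the densest 10 Mb of the long arm. No paired analysis was possible because each condition has 1 library, and for the same reason no replicate could be left out. The density ratio of short to long arm kept an interval that leaves out 1 in the 8 settings per list that could move it. Joining DMSO peaks cannot move the AKBA value and equal peak numbers cannot move the DMSO value. Its AKBA value was 0.459 with windows that hold a peak as the denominator and 0.466 without the densest 10 Mb.

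With a score of at least 3 the short-arm minus long-arm share of shared peaks was -9.60 points in AKBA and -23.9 points in DMSO, the DMSO median width ratio of the arms was 0.475, the AKBA over DMSO base ratio of the short arm was 2.52, and that ratio over the long-arm one was 1.40. With peaks of at least 1 kb the shared difference was -7.30 points in AKBA and -10.6 points in DMSO, the DMSO density ratio 0.366 and the DMSO width ratio 0.618. In the same setting the AKBA over DMSO ratio of peak numbers was 2.14 on the short arm and 1.96 on the long arm, the short-arm ratio over the long-arm ratio was 1.096, and the base ratio of the short arm was 2.57. With reciprocal overlap of 50% the shared difference was -0.476 points in AKBA and -5.55 points in DMSO. With the same number of peaks the ratio of numbers was 0.804 on the short arm and 1.02 on the long arm, and the long-arm base ratio was 1.48. That setting fixes the ratio of numbers over all chromosomes at 1. The AKBA minus DMSO difference was 1.20 kb between 181 and 182 Mb with peaks of at least 1 kb, and 1.22 kb between 196 and 197 Mb after merging, both against negative values over all peaks. The cause of these changes was not tested. The AKBA difference in shared peaks kept an interval above 0 in 6 of the 9 settings that moved it. The share of top-scoring peaks, short minus long arm, ranged from -22.0 to -9.06 points in AKBA and from -26.5 to -5.56 points in DMSO, and the share of peaks of at least 2 kb from -13.2 to -3.40 points in AKBA and from -38.7 to -10.4 points in DMSO. A score minimum removes peaks by a value whose scale may differ between the lists, and unknown depth limits every comparison of AKBA with DMSO.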
